A study of Mus musculus with 6 samples.

Results

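The genes described here make and move lipids in the newborn mouse neocortex. They are 31 genes chosen by name for their part in cholesterol synthesis, fatty acid synthesis and lipoprotein handling, and all 31 were among the 15703 genes of the deposited expression table. Messenger RNA was sequenced from whole neocortex on postnatal day 0, the day of birth. The 3 conditional knockout animals (cKO) carried the genotype Tcf4 f/f; Emx1Cre/+, in which Cre made from the Emx1 locus removes floxed Tcf4, and the 3 reference animals are labelled only WT. All 6 mice were of the C57BL/6 strain, and the labels do not say whether WT animals carried floxed alleles or Cre. Emx1 is active in progenitors of cortical excitatory neurons and macroglia, while interneurons, microglia and vessel cells of the same tissue come from other lineages. The study asked what loss of Tcf4, a basic helix-loop-helix transcription factor, does to expression.

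Brain cholesterol is made inside the brain, because lipoproteins of the blood do not cross the blood-brain barrier. Acetyl-CoA is built up through mevalonate and squalene to cholesterol, and the same precursor feeds fatty acid synthesis. Membrane-bound SREBP transcription factors, encoded by Srebf1 and Srebf2, are released when sterols are scarce and switch on most of these enzymes, while the Insig1 product holds them back. Glia pass cholesterol to neurons on particles built on apolipoprotein E, loaded by Abca1 and taken up through receptors such as Lrp1, and lipoprotein lipase (Lpl) frees fatty acids from lipoprotein triglyceride.

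Levels are FPKM, fragments scaled to exon length and to a size set for each library. Each change is a difference, cKO minus WT, of means of log2(FPKM + 1), with its standard error (SE). Tests were made with limma on 3 libraries a group, p-values were adjusted by the Benjamini-Hochberg method across the 15703 genes, and a gene was called at an adjusted p under 0.05. Fewer cells of a type and less RNA per cell cannot be told apart in such whole-tissue values. The listed genes held 25.3 to 28.8 M (mega) reads in a library, as recovered from the FPKM. The library sizes recovered as the scale of the FPKM were 23.2 to 26.1 M, below those reads in every library. Tcf4 was at 56.5, 60.6 and 55.3 FPKM in cKO libraries and at 71.2, 75.6 and 75.3 FPKM in WT libraries (adjusted p = 0.00411). The groups did not overlap for Tcf4, and its value counts all exons and all cells of the tissue. All 10 listed markers of deep-layer cortical neurons were measured, with summed levels of 248.9 to 259.8 FPKM in cKO and 304.7 to 328.6 FPKM in WT. Of these markers, 5 were called lower, where 8.59% of all genes were, and 4 had positive changes without passing.

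Lpl was the member that changed most. Its mean FPKM was 12.6-fold lower in cKO neocortex. The other called members passed the test with changes of under 0.5 log2 units: Acly, which makes cytosolic acetyl-CoA, and the sterol desaturase gene Sc5d rose, while the regulator Srebf1 and the mevalonate kinase gene Mvk fell. In all, 2 of 31 members were called higher, where 7.22% of all genes were, and 3 were called lower, where 8.59% of all genes were. Members were thus called about as often as genes at large (16.1% of members and 15.8% of all genes in either direction). The remaining 26 did not pass, the median change over the 31 members was 0.0063 and over all genes 0.0017, and 25 members lay within 0.25 log2 units of zero.

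**Figure D1:**
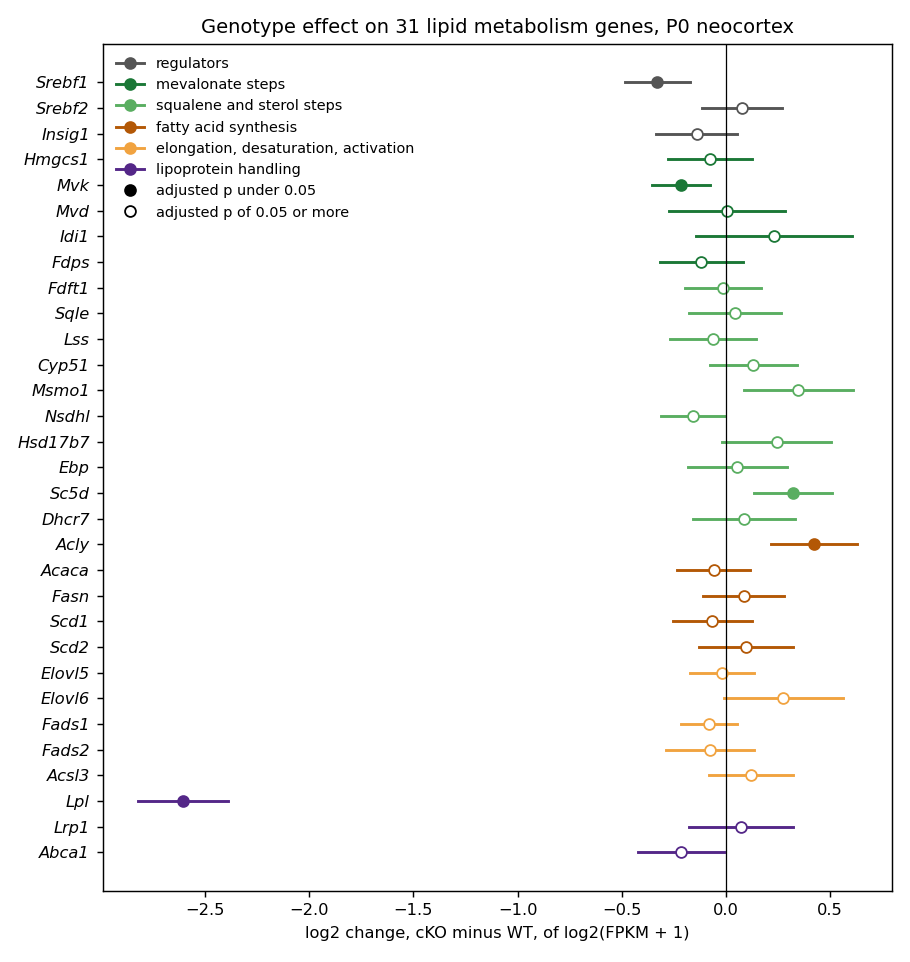
Log2 change (cKO minus WT, on the log2(FPKM + 1) scale) of each of the 31 genes, with its 95% confidence interval from limma, coloured by role. Filled circles mark the 5 genes with an adjusted p under 0.05. Lpl lies at −2.61 and every other member between −0.33 and 0.42.

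The wild-type libraries were unlike each other for these genes, and calls are therefore also given with libraries left out. WT 3 was the lowest of the 6 libraries for 22 of the 31 members, as it was for 25.2% of all genes, and WT 2 was the highest for 16 of them, as it was for 11.7% of all genes. Among the 15 enzymes of the mevalonate and sterol steps, WT 3 was lowest for 12 and WT 2 highest for 9. The summed level of those 15 genes was 558.5, 567.6 and 583.7 FPKM in cKO 1, 2 and 3, and 578.3, 653.4 and 497.1 FPKM in WT 1, 2 and 3. The cKO sums lay inside the range of the WT sums and closer to each other. The median within-group SD of the 15 genes was 0.0428 log2 units in cKO and 0.206 in WT, whereas over all genes it was 0.0786 in cKO and 0.0973 in WT. For 14 of the 15 genes the WT libraries were the more widely spread, as they were for 58.8% of all genes.

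WT 3 had the fewest recovered reads, 25.3 M, where the cKO libraries had 25.5 to 26.7 M reads, WT 1 had 28.8 M reads and WT 2 had 26.4 M reads. By the size used for scaling, cKO 3 was the smallest, at 23.2 M against 23.4 M in WT 3. Its summed markers were the lowest of the WT libraries for 7 of the 12 cell type lists. Those lists mark deep-layer neurons, radial glia, intermediate progenitors, astrocytes, the oligodendrocyte lineage, interneurons and blood, the last with 3 measured genes. Among the WT libraries, WT 3 was lowest for 38.3% of all genes and highest for 36.9%. Summed astrocyte markers were at 228.7 FPKM in WT 3, against 267.8 in WT 1 and 240.7 in WT 2, summed radial glia markers at 180.9 FPKM in WT 3, against 208.0 in WT 1 and 201.7 in WT 2, and summed oligodendrocyte lineage markers at 78.9 FPKM in WT 3, against 86.4 in WT 1 and 90.4 in WT 2. The part of depth and of these lists in the low lipid gene levels of WT 3 was not tested. Without WT 2, 6 members were called higher and 3 lower. Without WT 3, 1 was called higher and 3 lower, and without WT 1, 1 was called higher and 1 lower. Only Acly and Lpl kept their calls without each of the 6 libraries in turn.

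**Figure D2:**
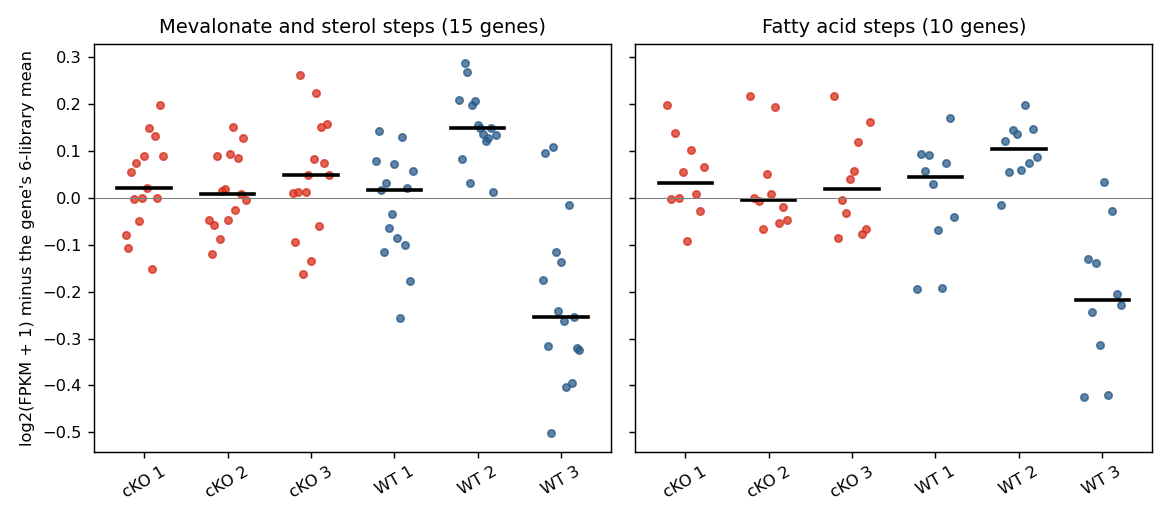
Deviation of each gene in each library from that gene's mean over the 6 libraries, in log2(FPKM + 1), for the 15 mevalonate and sterol enzymes and for the 10 fatty acid enzymes. Points are genes, and black bars are medians over genes. The sterol medians are between 0.0089 and 0.049 in the cKO libraries, 0.149 in WT 2 and −0.254 in WT 3.

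Levels differed widely among members. Hmgcs1, which makes the HMG-CoA that enters the mevalonate pathway, was the most abundant at 285.7 ± 9.04 FPKM in cKO and 303.0 ± 40.2 FPKM in WT (SD, n = 3 each). The stearoyl-CoA desaturase gene Scd2 came next at 204.6 ± 1.12 FPKM in cKO and 192.7 ± 30.4 FPKM in WT. The paralog Scd1 was far lower, at 7.70 ± 0.202 FPKM in cKO and 8.13 ± 0.929 FPKM in WT. Of the transcript words of 50 bases in Scd1, 4.56% also occur in transcripts of other genes, its paralogs leading. Fdps, the farnesyl diphosphate synthase gene, was lowest over both groups at 1.51 ± 0.212 FPKM in cKO and 1.72 ± 0.0837 FPKM in WT. A same-strand annotated gene, Gm43738, shares 26.7% of the exon length of Fdps, and how shared reads were assigned is not given in the sources used here, so its level is uncertain.

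**Figure D3:**
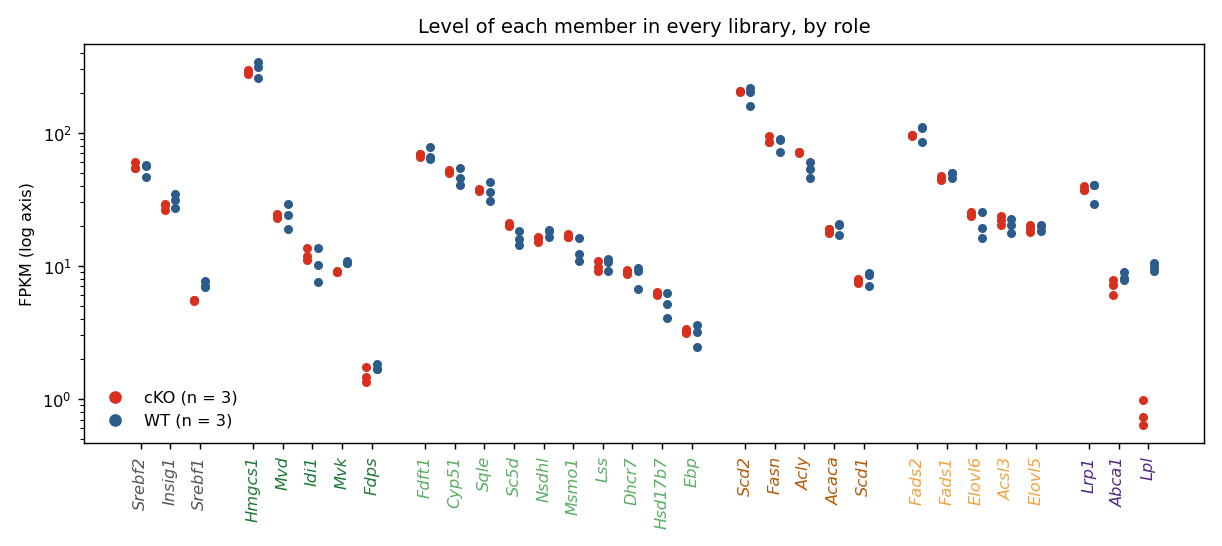
FPKM of each member in every library on a log axis, grouped by role and ordered by mean level within a role. Red points are cKO libraries and blue points WT libraries. The groups lie close together for nearly all genes, and Lpl is the exception, with 0.633 to 0.974 FPKM in cKO and 9.13 to 10.5 FPKM in WT.

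Among the regulators, Srebf1 fell. It encodes SREBP-1, the form tied mainly to fatty acid synthesis, and lies on chromosome 11 (60199089 to 60222581, minus strand, mm10). Srebf1 was at 5.48, 5.56 and 5.56 FPKM in cKO and at 7.63, 6.97 and 7.04 FPKM in WT. Every cKO library was below every WT library, and the change was −0.33 (SE 0.0701, adjusted p = 0.0119). This call was lost without WT 1, the WT library with the highest value (adjusted p = 0.0596). Srebf2, whose product drives mainly the cholesterol genes, was at 56.1 ± 3.32 FPKM in cKO and 53.3 ± 5.90 FPKM in WT. Its change was 0.08, with a 95% confidence interval of −0.11 to 0.27. Insig1, itself an SREBP target, was at 28.0 ± 1.37 FPKM in cKO and 31.1 ± 3.74 FPKM in WT, with an interval of −0.33 to 0.054. Neither passed, and the groups overlapped for both.

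Promoter entries of RefSeq (GRCm38.p6) matched 24 of the 31 members. The others were Lpl, Sqle, Fdft1, Fdps, Fads1, Scd1 and Scd2. Where a gene had several entries, the one nearest its GENCODE start was used. The entry used for Acaca lay 65766 bases from that start, so it does not show the region before it. The stretches below are the 250 bases before the annotated start of the 4 called genes that had an entry and of Hmgcs1. They are shown because SREBP acts with the partner factors NF-Y and Sp1 at such proximal promoters. Capitals mark the words searched on both strands: the sterol regulatory element core TCACNCCAC, also the NF-Y box, which reads CCAAT, and the Sp1 box GGGCGG. They also mark E-boxes, the kind of site that Tcf4 and its relatives bind, in a form reading CAGCTG, in another reading CAGGTG and in one more reading CATCTG. A word on the opposite strand shows as its reverse complement, such as ATTGG for the NF-Y box. The strands are plus for Hmgcs1 (chr13:119690101-119690350) and Mvk (chr5:114444019-114444268), and minus for Srebf1 (chr11:60222582-60222831), Sc5d (chr9:42264301-42264550) and Acly (chr11:100528001-100528250).
Srebf1: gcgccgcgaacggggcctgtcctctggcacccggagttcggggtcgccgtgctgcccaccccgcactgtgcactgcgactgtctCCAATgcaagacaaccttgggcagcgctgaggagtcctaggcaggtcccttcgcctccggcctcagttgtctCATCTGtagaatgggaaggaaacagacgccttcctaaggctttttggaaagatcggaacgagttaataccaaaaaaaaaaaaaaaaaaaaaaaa
Mvk: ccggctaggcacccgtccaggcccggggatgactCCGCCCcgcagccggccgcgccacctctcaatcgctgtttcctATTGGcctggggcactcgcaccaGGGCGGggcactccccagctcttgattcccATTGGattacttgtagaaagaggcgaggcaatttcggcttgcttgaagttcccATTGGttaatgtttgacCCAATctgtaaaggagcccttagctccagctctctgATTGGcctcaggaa
Sc5d: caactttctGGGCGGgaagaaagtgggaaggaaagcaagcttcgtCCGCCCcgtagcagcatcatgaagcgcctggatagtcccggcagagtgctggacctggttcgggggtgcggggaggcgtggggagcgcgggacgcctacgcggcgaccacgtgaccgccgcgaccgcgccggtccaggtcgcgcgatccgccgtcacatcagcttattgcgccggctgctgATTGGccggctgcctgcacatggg
Acly: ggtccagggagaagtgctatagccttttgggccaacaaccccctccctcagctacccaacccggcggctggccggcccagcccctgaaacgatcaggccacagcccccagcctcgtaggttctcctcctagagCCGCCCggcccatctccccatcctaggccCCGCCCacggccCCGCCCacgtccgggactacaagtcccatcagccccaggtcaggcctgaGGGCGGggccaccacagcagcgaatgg
Hmgcs1: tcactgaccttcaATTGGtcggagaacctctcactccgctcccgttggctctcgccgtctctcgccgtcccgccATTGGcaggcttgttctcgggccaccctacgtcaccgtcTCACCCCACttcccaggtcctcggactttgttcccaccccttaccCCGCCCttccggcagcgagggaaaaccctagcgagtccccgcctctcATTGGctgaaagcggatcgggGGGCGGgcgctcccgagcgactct

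The sterol element core was found in Hmgcs1, 137 bases before its start, and in no other of the 24 members, and 1.05% of 32851 promoters held it. The longer classical sterol regulatory element, which contains the core, was in no member and in 0.0731% of all promoters. CCAAT was in 17 of the 24 members and in 33.9% of all promoters, and GGGCGG in 19 members and in 32.7% of all promoters. Each member counts by 1 entry, the distant Acaca entry included, whereas the shares of all promoters count every entry, several for some genes. Mvk held CCAAT at 5 places and GGGCGG at 2, Acly held GGGCGG at 4 places and no CCAAT, and Sc5d held both words. At least 1 of the 3 E-boxes was in 7 of the 24 members and in 38.1% of all promoters. Among the called genes shown, Srebf1 held an E-box (CATCTG, 94 bases before its start), and Mvk, Sc5d and Acly held none of these words in this window. CAGCTG reads the same on both strands, and a match to any word describes letters, not binding. Near matches were not counted, so a missing word does not show that a site is missing.

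In the mevalonate steps, 1 of 5 enzymes passed. Mvk, which phosphorylates mevalonate (chromosome 5, 114444269 to 114460591, plus strand, mm10), was at 9.07, 8.97 and 9.14 FPKM in cKO and at 11.0, 10.5 and 10.6 FPKM in WT. The groups did not overlap, and the change was −0.21 (SE 0.0628, adjusted p = 0.0449). Leaving out any library but WT 2 lost the call, at most with 0.150 as the adjusted p (cKO 2 left out), and limma-voom on recovered reads gave 0.0664. Hmgcs1 did not pass. It was at 277.8, 283.8 and 295.6 FPKM in cKO and at 309.8, 339.4 and 259.8 FPKM in WT, so the cKO values lay between the WT extremes. An antisense gene, Gm48342, overlaps 12.1% of its exon length, and their reads cannot be told apart without strand. Idi1, which isomerises isopentenyl diphosphate, was at 11.1, 11.9 and 13.6 FPKM in cKO and at 10.2, 13.6 and 7.58 FPKM in WT (change 0.23, adjusted p = 0.361). Idi1 was called higher without WT 2 (adjusted p = 0.0384), and 17.7% of its 50-base words also occur in transcripts of other genes. Mvd, which makes that diphosphate, averaged 23.8 ± 0.986 FPKM in cKO and 24.0 ± 5.18 FPKM in WT, and Fdps, described above, did not pass either.

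Of the 10 enzymes from squalene to cholesterol, 1 rose, none fell and 9 did not pass. Sc5d, a desaturase of the late pathway (chromosome 9, 42251595 to 42264256, minus strand, mm10), was at 20.8, 19.8 and 20.2 FPKM in cKO and at 15.8, 18.2 and 14.2 FPKM in WT. All cKO libraries were above all WT libraries, with a change of 0.32 (SE 0.0849, adjusted p = 0.0298). Leaving out any library but WT 2 lost the call, with adjusted p between 0.0591 (WT 3 left out) and 0.10 (cKO 1 left out). Msmo1, which removes methyl groups from the sterol ring, was at 16.5, 16.5 and 17.4 FPKM in cKO and at 12.2, 16.3 and 10.9 FPKM in WT. Its groups did not overlap, and its change of 0.35 did not pass (adjusted p = 0.0722). It was called higher without WT 2 (adjusted p = 0.00286), the library nearest to the cKO values, and with limma-voom on recovered reads (adjusted p = 0.0354).

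Hsd17b7, an enzyme of the same demethylation steps, averaged 6.19 ± 0.169 FPKM in cKO and 5.13 ± 1.10 FPKM in WT, and was called higher without WT 2 (adjusted p = 0.0310 against 0.179 with all libraries). Nsdhl, their partner enzyme, was at 15.9 ± 0.754 FPKM in cKO and 17.8 ± 1.04 FPKM in WT, below WT in every library without passing (change −0.16, adjusted p = 0.149). The early enzymes Fdft1 (squalene synthase) and Sqle (squalene epoxidase) averaged 68.1 and 37.3 FPKM in cKO and 69.1 and 36.4 FPKM in WT. The change of Fdft1 had an interval of −0.20 to 0.17 and that of Sqle of −0.17 to 0.27. Of the exon length of Fdft1, 18.3% overlaps the gene of cathepsin B, which runs antisense to it. Lss, which closes the sterol ring, averaged 9.87 FPKM in cKO and 10.4 FPKM in WT. Cyp51, the lanosterol demethylase, averaged 51.1 FPKM in cKO and 46.8 FPKM in WT. Ebp, a sterol isomerase, averaged 3.23 FPKM in cKO and 3.09 FPKM in WT, and Dhcr7, a late reductase, 8.99 FPKM in cKO and 8.48 FPKM in WT. These 4 did not pass, with adjusted p of 0.355 (Cyp51) to 0.753 (Ebp).

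In fatty acid synthesis, 1 of 5 genes rose. Acly encodes ATP citrate lyase, the enzyme that turns citrate into the acetyl-CoA of the cytosol (chromosome 11, 100476353 to 100528000, minus strand, mm10). Acly was at 70.6, 71.5 and 71.5 FPKM in cKO and at 53.5, 60.8 and 45.5 FPKM in WT. The cKO libraries lay within 1 FPKM of each other and above all WT libraries, with a change of 0.42 (SE 0.0925, adjusted p = 0.0134). Its adjusted p stayed between 0.00361 and 0.0467 when any library was left out. The other genes of this group, downstream of Acly in fatty acid synthesis, did not pass. Acaca, acetyl-CoA carboxylase, averaged 18.5 ± 0.649 FPKM in cKO and 19.3 ± 1.89 FPKM in WT. Fasn, fatty acid synthase, was at 94.3, 85.1 and 85.3 FPKM in cKO and at 89.1, 88.9 and 72.1 FPKM in WT. The change of Fasn had an interval of −0.11 to 0.28, and that of Scd2 of −0.13 to 0.32. For Acaca, 30.4% of its 50-base words also occur in transcripts of other genes, so its level is uncertain.

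None of the 5 genes of elongation, desaturation and activation passed. Elovl6, which extends palmitate, was at 23.8, 25.4 and 24.0 FPKM in cKO and at 19.2, 25.5 and 16.2 FPKM in WT (change 0.28, adjusted p = 0.167). It was called higher without WT 2 (adjusted p = 0.00785). Elovl5, an elongase of polyunsaturated chains, averaged 19.2 FPKM in cKO and 19.4 FPKM in WT. The desaturases of the same chains were also close: Fads1 was at 45.6 ± 1.43 FPKM in cKO and 48.3 ± 2.02 FPKM in WT, and Fads2 at 96.2, 96.8 and 93.8 FPKM in cKO and 110.6, 108.9 and 85.1 FPKM in WT. Fads2 was called lower without WT 3 (adjusted p = 0.0422). Acsl3, which couples fatty acids to coenzyme A, was at 21.9 ± 1.66 FPKM in cKO and 20.1 ± 2.31 FPKM in WT.

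Lipoprotein handling held the large change. Lpl (ENSMUSG00000015568, chromosome 8, 68880491 to 68907448, plus strand, mm10) was at 0.633, 0.974 and 0.729 FPKM in cKO and at 10.5, 9.13 and 9.83 FPKM in WT. The lowest WT library was well above the highest cKO library, and about 157 to 248 reads a library stood behind the cKO values against 2244 to 2868 in WT. The change was −2.61 (SE 0.0962, adjusted p = 3.98e-07), and −3.51 with a pseudocount of 0.1. It was the fifth largest decrease of all genes, and changes of at least 1 log2 unit in either direction were found in 0.726% of genes. The adjusted p did not exceed 1.18e-05 without any library. The cholesterol exporter gene Abca1 was at 6.08, 7.84 and 7.12 FPKM in cKO and at 8.92, 7.84 and 8.06 FPKM in WT. Its libraries did not overlap, by a margin of less than 0.01 FPKM, and it did not pass (change −0.21, adjusted p = 0.140). The receptor gene Lrp1 was at 39.6, 37.4 and 37.0 FPKM in cKO and at 40.2, 40.2 and 28.9 FPKM in WT, with an interval of −0.18 to 0.32.

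**Figure D4:**
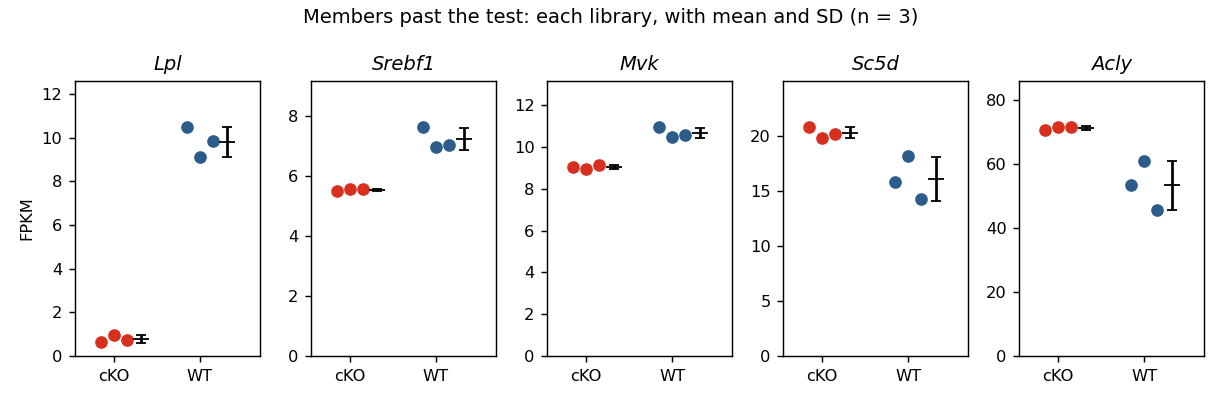
FPKM in each library for the 5 members with an adjusted p under 0.05, cKO left and WT right, with mean and SD of 3 libraries beside the points and the axis starting at 0. The groups do not overlap in any panel, and the Acly and Sc5d values are tight in cKO and spread in WT.

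Lpl is expressed by more than 1 cell class in brain, neurons, microglia and vessel-associated cells among them, and markers of several classes moved with genotype. Of 12 upper-layer neuron markers, 6 fell and 1 rose (Pou3f2), where 8.59% of all genes were called lower and 7.22% higher. The smallest p-values of limma in this list were those of Dkk3, Plxnd1, Mdga1 and Rorb, all lower. The summed level of the 12 markers was 322.6 to 327.1 FPKM in cKO and 352.6 to 379.7 FPKM in WT. Of 10 deep-layer markers, 5 fell, the smallest p-values being those of Rprm, Ntsr1, Sox5 and Crym, and none rose, with a median change of −0.26. Changes of this list ran from −1.28 (Crym) to 0.15 (Fezf2). In 4 of the 10 (Fezf2, Tle4, Bcl11b and Ldb2) the change was positive without passing. Of 10 interneuron markers, 4 fell (Dlx2, Sp8, Sst and Gad2) and none rose. The summed level of the 10 markers was 90.7 to 103.4 FPKM in cKO and 115.5 to 125.2 FPKM in WT. Of 11 microglia markers, 6 fell, the smallest p-values being those of Ctss, Laptm5, Cd68 and C1qc, and none rose, and their sum was 22.8 to 31.1 FPKM in cKO and 35.8 to 43.7 FPKM in WT. None of 8 measured endothelial and 7 measured mural and fibroblast markers passed, with endothelial sums of 36.5 to 40.9 FPKM in cKO and 38.1 to 44.9 FPKM in WT. Of 9 oligodendrocyte lineage markers, 2 fell (Olig1 and Pdgfra) and 1 rose (Mog), with a median change of −0.13. Of 10 measured astrocyte markers, 9 fell and none rose. No measured marker of these lists was listed at 0. Changes of the microglia list ran from −0.55 to −0.16, with a median of −0.42. Those of the upper-layer list ran from −2.17 (Dkk3) to 0.39 (Pou3f2), with a median of −0.30. The part of these cells in the fall of Lpl was not tested.

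Of the genes tied to Lpl or to lipoprotein uptake, 3 that did not pass are given here by value. Other lipoprotein genes were called and are given below: Apoe and Apod were lower, and Sort1 and Sorl1 higher. Lmf1, needed for the folding of the lipase, averaged 0.674 ± 0.109 FPKM in cKO and 0.755 ± 0.0833 FPKM in WT. Sel1l, which takes part in its exit from the endoplasmic reticulum, averaged 21.3 ± 0.380 FPKM in cKO and 23.8 ± 1.09 FPKM in WT (adjusted p = 0.128). The lipoprotein receptor gene Vldlr averaged 14.0 ± 0.195 FPKM in cKO and 14.0 ± 0.740 FPKM in WT, with a change of −0.0013. Lmf1 and Vldlr were chosen after their values were seen.

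Further genes of the pathway were described from 6 lists, of which 95 of 107 genes were measured. Of these, 4 rose, 10 fell and 81 did not pass, with a median change of −0.057. The share called, 14.7%, was near the 15.8% of all genes. By direction, 7.22% of all genes were called higher and 8.59% lower, the shares to set beside each count below. Among other sterol synthesis genes, 1 of 7 rose (Lbr, a sterol reductase of the nuclear envelope, at 6.15 ± 0.391 FPKM in cKO and 4.86 ± 0.344 FPKM in WT, adjusted p = 0.0378), a call lost without 5 of the 6 libraries (up to 0.150 without cKO 2). Acat2, which makes acetoacetyl-CoA, averaged 76.1 ± 4.42 FPKM in cKO and 76.2 ± 6.09 FPKM in WT. None of 10 genes of sterol control passed.

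Of 11 genes that store or move sterols, 2 fell and 1 rose. Osbpl1a, an oxysterol-binding protein gene, fell to 11.2 ± 1.59 FPKM in cKO, against 20.99 ± 0.352 FPKM in WT (change −0.85, adjusted p = 0.000278). Nceh1, a cholesteryl ester hydrolase gene, was at 1.95 ± 0.103 FPKM in cKO and 3.12 ± 0.328 FPKM in WT (adjusted p = 0.00646). Both calls held without each library in turn. Gramd1a, which carries sterol from the plasma membrane, was higher, at 46.7 ± 3.86 FPKM in cKO and 37.7 ± 1.88 FPKM in WT (adjusted p = 0.0226), a call lost without WT 1 (0.0843) or cKO 1 (0.0774).

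Of 24 other fatty acid genes, 5 fell and none rose, where 8.59% of all genes were called lower and 7.22% higher. Fabp7, a fatty acid binding protein gene of radial glia among other cells, was at 257.8, 334.4 and 344.8 FPKM in cKO and at 458.6, 450.1 and 454.4 FPKM in WT (adjusted p = 0.00562). The change of Fabp7 was −0.55. Of 9 radial glia markers, 2 fell and none rose, with a median change of −0.045. Of 10 measured astrocyte markers, 9 fell and none rose, with a median change of −0.58. The part of cell types in the fall of Fabp7 was not tested. Fabp3, a related carrier, averaged 33.8 ± 5.05 FPKM in cKO and 45.5 ± 1.54 FPKM in WT (adjusted p = 0.0149), and lost its call without cKO 1 (0.0528) and, narrowly, without WT 1. Fabp5 was at 84.9 ± 9.41 FPKM in cKO and 84.8 ± 4.49 FPKM in WT, and Tecr, a reductase of chain elongation, at 99.1 ± 1.72 FPKM in cKO and 101.5 ± 3.27 FPKM in WT. Hacd2, Acsl1 and Scd3 also fell, by 0.29, 0.32 and 0.23 on the log2 scale. Scd3 was low, at 0.309 FPKM in cKO and 0.535 FPKM in WT, so its change is understated on this scale. About 19 to 31 reads a library stood behind its cKO values and 45 to 48 behind its WT values. Scd1 and Scd2 share 50-base words with Scd3, so its level is uncertain. Hacd2 and Acsl1 lost their calls without 5 libraries and Scd3 without all 6, with adjusted p of up to 0.116, 0.145 and 0.163. Quantile normalization also ended the calls of Acsl1 (0.0503) and Scd3 (0.0681), and plain moderation that of Scd3 (0.0586).

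Of 27 measured genes of lipoproteins and their receptors, 2 fell and 2 rose. Apoe, the apolipoprotein of astrocyte particles, was at 19.4, 21.9 and 26.6 FPKM in cKO and at 48.8, 37.1 and 38.4 FPKM in WT (change −0.84, adjusted p = 0.00179), and Apod averaged 2.18 ± 0.0330 FPKM in cKO and 3.26 ± 0.614 FPKM in WT (adjusted p = 0.0275). Of 10 measured astrocyte markers, 9 fell beside these, where 8.59% of all genes were called lower. The sum of the 10 markers was 186.8 to 216.6 FPKM in cKO and 228.7 to 267.8 FPKM in WT. The part of astrocyte number or content in the fall of Apoe was not tested. The sorting receptors Sort1 and Sorl1 were higher. Sort1 was at 27.9, 27.9 and 27.8 FPKM in cKO and at 21.3, 23.6 and 18.7 FPKM in WT (adjusted p = 0.0115). Sorl1 averaged 11.1 ± 0.796 FPKM in cKO and 8.90 ± 0.546 FPKM in WT (adjusted p = 0.0295). Apod and Sorl1 lost their calls without 5 libraries, with adjusted p of up to 0.0801 and 0.129, while Sort1 kept its call without each library. The Reelin receptor gene Lrp8 averaged 37.7 ± 2.21 FPKM in cKO and 31.9 ± 2.49 FPKM in WT and did not pass (adjusted p = 0.0577), although it was called higher without WT 2 (0.0299), with quantile normalization (0.0311) and with limma-voom on recovered reads (0.0368).

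Fatty acid oxidation held 1 called gene of 16. Acadl, the long-chain acyl-CoA dehydrogenase gene, was at 4.55, 5.15 and 5.53 FPKM in cKO and at 7.74, 7.18 and 8.09 FPKM in WT (change −0.51, adjusted p = 0.00321). Its groups did not overlap, and the call held without each library. Across the list the median change was −0.040 and the sum was 94.9 to 101.3 FPKM in cKO and 102.7 to 105.4 FPKM in WT.

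Counted without a test, the groups did not overlap for 8 of the 31 members, where 37.3% of all genes did not overlap. In 3 members (Acly, Sc5d and Msmo1) the cKO libraries were all higher, where 18.5% of all genes were, and in 5 (Lpl, Srebf1, Mvk, Nsdhl and Abca1) they were all lower, where 18.7% of all genes were.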

How the data were processed

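Per the file headers, the deposited table held FPKM computed by the authors, 1 column for each of 6 animals, and each column was matched to its animal by the code in the sample title. Per the submitters' processing notes, bcl2fastq 1.8.4, STAR 2.5.4b, featureCounts 1.6.1, R 3.4.1, DESeq2 1.22.1 and the build mm10 were used; which annotation release, strand option or low-expression filter they applied is not given in the sources used here. In the table there were 15703 genes and 139 blank lines, which were left out. Median-ratio size factors of the columns were 1.00 in every library, so the deposited columns share one scale.

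The test was limma 3.58.1 in R 4.3.3 with a mean-variance trend and robust moderation, applied to log2(FPKM + 1). Genotype was its single term, and no further filter was set. On this scale a change of a low gene is understated. The replicates have different animal codes in their titles. Reads were recovered from FPKM and GENCODE M21 exon lengths: 95.0% to 96.2% of values of low genes came within 0.1 of a whole number. With a library size set wrong on purpose, 16.7% to 20.6% did. They served for depth and 1 alternative fit. On simulated data from the 15703 genes of this comparison, 12% of 50 genes changed 1.25-fold were recovered, 56% at 1.5-fold, 80% at 2-fold and 96% at 4-fold. Small changes could thus be missed. The simulation changed only 50 genes at each fold, all with a mean of at least 1 FPKM, while 2483 genes were called in the data. Its adjustment was therefore stricter, and these shares do not measure the power of the real comparison. All 31 members are named. Of the other pathway lists, called genes and up to 3 abundant uncalled ones were named by rule, and some named genes are not reported here. The members and lists were chosen with earlier results of these data known. The alternatives were another pseudocount, a filter on low values, other scalings, plain moderation, a replicate block, leaving out each library and limma-voom on recovered reads.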

Additional observations from a re-analysis of the deposited data

How the results depend on the processing

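Of the 31 members, 2 were called higher and 3 lower, and these counts kept within 1 gene under the other pseudocount, the filter at a mean of 1 FPKM, median-ratio scaling, quantile normalization, plain moderation, the replicate block and limma-voom (2 to 3 higher, 2 to 3 lower); limma-voom added Msmo1 and lost Mvk. When a library was left out, 1 to 6 members were called higher and 1 to 3 lower, 1 to 8 other pathway genes were called higher and 5 to 12 lower, and over all genes 544 to 1572 were called higher and 830 to 1517 lower. Each of these 6 counts was at its highest without WT 2 and at its lowest without WT 1, in some cases tied with another library, and the cause was not tested. Uncalled members near zero changed sign. When a library was left out, the log2 change ranged from −0.016 to 0.13 for Srebf2, −0.18 to 0.0095 for Hmgcs1, −0.15 to 0.15 for Mvd, −0.074 to 0.082 for Fdft1, −0.063 to 0.16 for Sqle, −0.14 to 0.0021 for Lss, −0.058 to 0.14 for Ebp, −0.052 to 0.18 for Dhcr7, −0.014 to 0.14 for Fasn, −0.034 to 0.19 for Scd2, −0.056 to 0.025 for Elovl5, −0.080 to 0.15 for Lrp1, −0.044 to 0.065 for Acat2 and −0.058 to 0.091 for Fabp5. Quantile normalization gave 0.038 for Hmgcs1, 0.066 for Fdft1, 0.035 for Fads2, 0.071 for Fabp5 and 0.063 for Tecr. None of these genes was called in the reported fit. Same-numbered libraries did not deviate together (r of −0.046, 0.0998 and −0.048 across genes), so the numbers were taken as names. With the replicate number as a block, 2 members were called higher and 2 lower, Mvk being lost (adjusted p = 0.0603), the calls of Acsl1 (0.0561) and Scd3 (0.0567) were lost, Lrp8 was called higher (0.0257), and 1274 genes were called higher and 1541 lower.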
